A study of Mus musculus with 24 samples.

Results

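H3K4me3 and H3K27ac peaks of the newborn mouse retina were set against each other, peak by peak and gene by gene. All peaks of the deposited P2 (postnatal day 2) list of each mark were taken by their coordinates, 9134 for H3K4me3 and 287845 for H3K27ac. Together they are 296979 of the 349901 peaks in the 8 deposited lists of the series. A peak belonged to both marks if it shared at least 1 base with a peak of the other mark, and otherwise to H3K4me3 only or H3K27ac only. The study used CUT&RUN, in which an antibody brings a nuclease to a chromatin protein and the released DNA is sequenced. It profiled the transcription factors SOX8 and SOX9 and the same 2 marks in wild-type retina at P2 and at P17 (postnatal day 17), in 24 libraries. Each mark had 2 libraries per age, made from 600000 nuclei each with EpiCypher antibodies. Each list stands for an age and target and names no replicate, so no replicate error exists for any value below and no test between groups was made. Shares carry a 95% Wilson interval where stated, which covers counting error only. The retina was taken whole, so a peak can come from any of its cell types, and fewer cells with a mark cannot be told apart from less mark per cell.

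H3K4me3, trimethylation of lysine 4 of histone H3, is placed by the SET1 and MLL (KMT2) complexes, which are drawn to unmethylated CpG-rich DNA, and marks promoters of active and poised genes. H3K27ac, acetylation of lysine 27, is placed by the acetyltransferases CBP and p300 and marks active promoters and active enhancers. At P2 the mouse retina holds dividing progenitors, early-born ganglion, amacrine, horizontal and cone cells, and young rods. Bipolar cells and Müller glia, the main glia of the retina, form in the days after.

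To show what the promoters of the differently marked genes look like, 11 promoters are printed here from RefSeq (GRCm38.p6), each from 250 bases before to 50 after the start site, in the 5′ to 3′ direction of the gene. Capitals mark CpG, the dinucleotide at which DNA is methylated. Nr4a2 and H2-D1 come from the genes with the most H3K4me3 relative to H3K27ac, and both lay wholly under an H3K4me3 peak.
Nr4a2 chr2:57123954-57124253 (minus strand): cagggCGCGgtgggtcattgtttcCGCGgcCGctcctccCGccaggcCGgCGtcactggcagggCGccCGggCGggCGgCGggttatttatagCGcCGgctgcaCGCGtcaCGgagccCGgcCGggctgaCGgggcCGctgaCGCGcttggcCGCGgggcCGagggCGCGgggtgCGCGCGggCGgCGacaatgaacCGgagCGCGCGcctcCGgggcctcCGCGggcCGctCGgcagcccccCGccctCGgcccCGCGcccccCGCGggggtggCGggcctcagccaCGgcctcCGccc
H2-D1 chr17:35262844-35263143 (plus strand): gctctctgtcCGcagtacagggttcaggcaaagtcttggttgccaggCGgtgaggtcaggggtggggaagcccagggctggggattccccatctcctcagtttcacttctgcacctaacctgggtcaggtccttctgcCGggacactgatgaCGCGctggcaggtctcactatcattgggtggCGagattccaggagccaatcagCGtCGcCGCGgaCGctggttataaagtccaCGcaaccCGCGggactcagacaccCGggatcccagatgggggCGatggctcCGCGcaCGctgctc
The Nr4a2 promoter held 52 CpG and the H2-D1 promoter 19. H3K27ac covered 244 of the 300 bases at Nr4a2 and 0 at H2-D1. The next 3 are the start sites inside the widest H3K4me3-only peaks that hold one, with no H3K27ac within 1 kb.
Isl2 chr9:55540899-55541198 (plus strand): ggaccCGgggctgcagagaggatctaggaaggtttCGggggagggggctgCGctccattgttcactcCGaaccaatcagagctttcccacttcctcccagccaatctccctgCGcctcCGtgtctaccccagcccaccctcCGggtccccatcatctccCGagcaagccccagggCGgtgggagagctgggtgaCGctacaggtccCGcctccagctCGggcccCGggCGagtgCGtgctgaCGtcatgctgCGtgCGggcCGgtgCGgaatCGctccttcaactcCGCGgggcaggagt
Nrp2 chr1:62703067-62703366 (plus strand): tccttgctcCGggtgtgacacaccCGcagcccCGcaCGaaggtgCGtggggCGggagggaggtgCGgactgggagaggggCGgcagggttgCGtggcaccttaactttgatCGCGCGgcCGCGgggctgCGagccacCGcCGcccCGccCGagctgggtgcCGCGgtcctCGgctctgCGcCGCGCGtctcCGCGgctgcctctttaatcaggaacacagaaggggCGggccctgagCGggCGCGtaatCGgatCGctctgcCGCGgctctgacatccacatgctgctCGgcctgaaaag
Pou3f3 chr1:42695518-42695817 (plus strand): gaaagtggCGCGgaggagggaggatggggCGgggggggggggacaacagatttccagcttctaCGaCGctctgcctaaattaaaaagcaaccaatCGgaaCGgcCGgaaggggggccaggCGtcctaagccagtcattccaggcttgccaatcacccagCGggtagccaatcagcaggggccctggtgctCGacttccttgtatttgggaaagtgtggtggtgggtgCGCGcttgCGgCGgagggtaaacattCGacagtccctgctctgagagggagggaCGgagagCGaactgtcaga
They held 23, 37 and 18 CpG. Pax6 and Six3, added as examples of genes with wide peaks of both marks, were covered over all 300 bases by both.
Pax6 chr2:105668646-105668945 (plus strand): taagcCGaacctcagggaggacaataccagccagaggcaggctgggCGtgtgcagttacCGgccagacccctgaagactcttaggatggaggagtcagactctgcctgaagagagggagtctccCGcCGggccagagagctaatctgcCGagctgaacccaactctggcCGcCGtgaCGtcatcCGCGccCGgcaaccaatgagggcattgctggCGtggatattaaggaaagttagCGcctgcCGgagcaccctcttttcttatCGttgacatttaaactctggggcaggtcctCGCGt
Six3 chr17:85620584-85620883 (plus strand): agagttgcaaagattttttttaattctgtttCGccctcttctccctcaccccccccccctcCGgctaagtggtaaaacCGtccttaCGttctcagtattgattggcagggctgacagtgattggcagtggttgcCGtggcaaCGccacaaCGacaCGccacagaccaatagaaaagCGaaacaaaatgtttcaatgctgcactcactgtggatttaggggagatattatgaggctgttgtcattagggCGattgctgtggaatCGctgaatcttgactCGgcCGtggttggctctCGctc
These held 18 and 14 CpG. The last 4 had H3K27ac over all 300 bases and no H3K4me3 within 1 kb. Ccdc187 and Dync2h1 come from the genes with the least H3K4me3 relative to H3K27ac, and the Ssbp3 and Smim38 start sites lie inside 2 of the 5 widest H3K27ac-only peaks.
Ccdc187 chr2:26294508-26294807 (minus strand): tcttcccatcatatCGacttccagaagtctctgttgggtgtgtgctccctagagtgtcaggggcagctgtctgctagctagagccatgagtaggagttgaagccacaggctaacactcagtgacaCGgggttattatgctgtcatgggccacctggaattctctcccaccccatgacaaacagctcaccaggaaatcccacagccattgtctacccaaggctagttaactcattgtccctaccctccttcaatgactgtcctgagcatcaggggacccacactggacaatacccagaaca
Dync2h1 chr9:7177009-7177308 (minus strand): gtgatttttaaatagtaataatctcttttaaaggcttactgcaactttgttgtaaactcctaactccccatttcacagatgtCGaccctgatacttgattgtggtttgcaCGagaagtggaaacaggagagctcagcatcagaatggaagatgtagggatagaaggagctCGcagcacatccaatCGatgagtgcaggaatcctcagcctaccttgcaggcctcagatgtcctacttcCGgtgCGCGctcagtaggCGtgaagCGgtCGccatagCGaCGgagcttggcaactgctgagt
Ssbp3 chr4:106922935-106923234 (plus strand): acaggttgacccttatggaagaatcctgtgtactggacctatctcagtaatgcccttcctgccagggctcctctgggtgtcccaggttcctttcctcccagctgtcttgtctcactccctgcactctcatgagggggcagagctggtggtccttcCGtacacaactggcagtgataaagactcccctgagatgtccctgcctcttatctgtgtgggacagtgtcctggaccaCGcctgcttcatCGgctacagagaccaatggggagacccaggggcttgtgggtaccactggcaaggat
Smim38 chr7:145208070-145208369 (minus strand): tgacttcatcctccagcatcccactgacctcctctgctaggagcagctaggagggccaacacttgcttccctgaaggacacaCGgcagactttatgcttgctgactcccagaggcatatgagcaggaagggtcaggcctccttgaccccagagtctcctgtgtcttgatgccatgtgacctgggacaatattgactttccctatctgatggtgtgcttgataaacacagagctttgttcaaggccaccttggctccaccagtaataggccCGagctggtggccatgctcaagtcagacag
Ccdc187 held 2 CpG, Ssbp3 3 and Smim38 2, while Dync2h1 held 12. The Ssbp3 site shown is a start inside the gene, not the one under its H3K4me3 peak. The Ccdc187 and Dync2h1 sites shown also lie inside the annotated genes, which reach to chr2:26300204 and chr9:7178306.

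Nearly every H3K4me3 peak of the P2 retina carried H3K27ac, whereas few H3K27ac peaks carried H3K4me3. Of the 9134 H3K4me3 peaks, 8967 overlapped an H3K27ac peak (98.2%, interval 97.9% to 98.4%) and 167 did not. Of the 287845 H3K27ac peaks, 10433 overlapped H3K4me3 (3.62%) and 277412 did not. There were 31.5 times as many H3K27ac peaks, and they covered 525.4 Mb against 35.5 Mb for H3K4me3. The marks shared 24.2 Mb, which is 68.1% of the H3K4me3 bases and 4.60% of the H3K27ac bases. The extent of the H3K27ac list bears on the first share: with the 29909 widest H3K27ac peaks alone, the number in the P17 list, 26.7% of H3K4me3 peaks overlapped one. Trimming every peak to its central 500 bp left 60.7%.

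H3K4me3 peaks were the wider ones, with a median of 3542 bp against 1166 bp for H3K27ac. H3K27ac peaks on H3K4me3 had a median width of 2214 bp, and those elsewhere 1144 bp. Within an H3K4me3 peak the H3K27ac cover was mostly 1 peak that left part of the H3K4me3 peak free. The covered share had a median of 68.3% (quartiles 53.1% and 84.8%), 7622 H3K4me3 peaks held 1 H3K27ac peak and 1345 held between 2 and 5. Only 778 of all H3K4me3 peaks (8.52%) were covered from end to end. The smallest overlap that counted was 31 bp. The H3K4me3-only peaks lay between 80 bp and 59.4 kb from the nearest H3K27ac peak, with a median of 4733 bp. Of these peaks 16 lay within 1 kb of H3K27ac and 51 over 10 kb away.

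The 2 marks were also set out as a profile around start sites. RefSeq promoters placed 21263 start sites of 17492 genes (79.9% of the 21887 protein-coding genes). H3K4me3 peaks held 9331 of them, and 8916 of these were also in an H3K27ac peak. Among these 9331 sites, the share inside an H3K4me3 peak dropped under 50% at 1.5 kb upstream and 2.1 kb downstream. For H3K27ac that point came at 1.1 kb and 1.3 kb, nearer the start site on both sides. These sites were picked for lying in an H3K4me3 peak, so the profile cannot show that one mark lay inside the other at each site. H3K27ac peaks on H3K4me3 covered 34.8 Mb, of which 24.2 Mb was shared with H3K4me3. Farther out the order was the opposite. At 10 kb downstream 34.0% of sites were in an H3K27ac peak and 3.38% in an H3K4me3 peak, and at 10 kb upstream the shares were 21.6% and 4.61%. Upstream, the H3K27ac share was lowest at 3.4 kb, with 15.5%. Start sites outside H3K4me3 peaks were in an H3K27ac peak in 33.0% of cases.

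**Figure D1:**
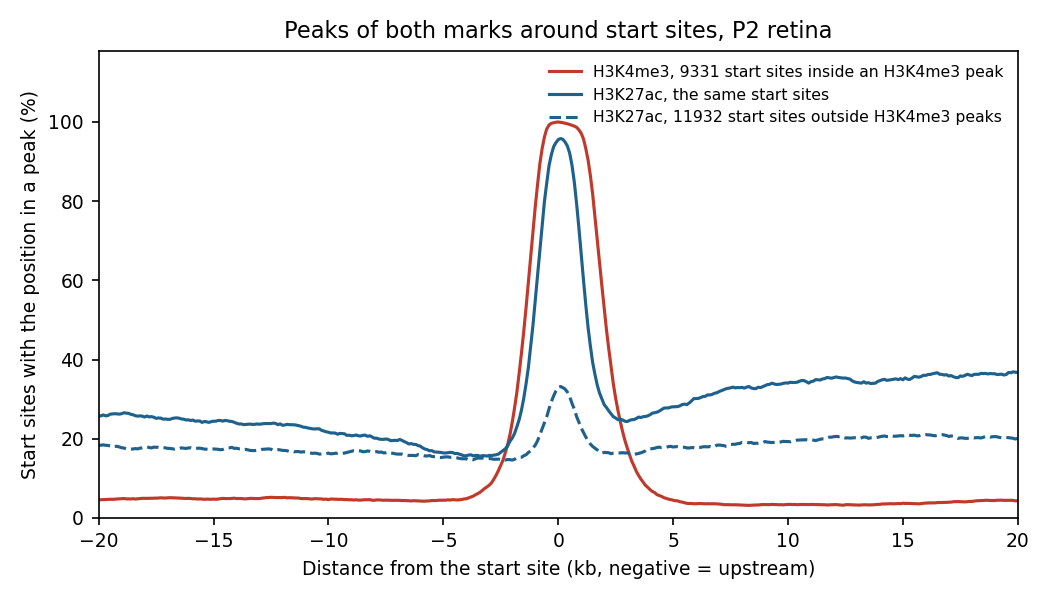
The share of start sites (y axis, percent) at which a position lies in a peak is drawn against distance from the start site (x axis, kb), for H3K4me3 and H3K27ac at the 9331 sites inside an H3K4me3 peak and for H3K27ac at the other 11932. The H3K4me3 curve is the broader one at the start site and is at 4.61% 10 kb upstream, while H3K27ac reaches 36.7% at 20 kb downstream.

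The 4 classes of peak differed in where they lay. Of the H3K4me3 peaks with H3K27ac, 77.5% were within 1 kb of a listed start site. Of the 167 H3K4me3-only peaks, 99 were (59.3%), 30.5% were elsewhere in a protein-coding gene and 10.2% outside such genes. H3K27ac-only peaks were rarely at start sites (1.74%). They divided between protein-coding gene bodies (51.1%) and DNA outside these genes (47.2%). The share of the genome in each is not set beside these values. Their median distance to the nearest H3K4me3 peak was 121.1 kb. Only 3.48% of them were within 5 kb of an H3K4me3 peak.

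P2 peaks of SOX8 and SOX9, the transcription factors the study profiled, overlapped a larger share of peaks with both marks than of peaks with 1 mark. The shares below are of the mark peaks, and the share of SOX peaks in each class was not counted. SOX9 peaks overlapped 48.0% of the H3K4me3 peaks with H3K27ac (interval 46.9% to 49.0%) and 16 of the 167 without it (9.58%, 5.98% to 15%). For SOX8 the shares were 26.2% and 7 of 167 (4.19%, 2.05% to 8.40%). Among H3K27ac peaks, those on H3K4me3 overlapped SOX9 in 43.7% (4556 of 10433) and those elsewhere in 0.369% (1024 of 277412). The difference was also present among peaks of like width. Among peaks between 2724.5 and 4121.5 bp, the middle widths of the H3K4me3-only class, SOX9 overlapped 60.6% of H3K27ac peaks on H3K4me3 and 0.592% of those elsewhere. In the same width range the H3K4me3 peaks with and without H3K27ac overlapped SOX9 in 41.8% and 9.64%. The order of the H3K4me3 classes held in 5 of 6 alternative settings for each factor. Trimming every peak to 500 bp reversed it, to 41.8% with H3K27ac and 51.5% without for SOX9.

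The P17 lists give the same loci at a later age, with far fewer H3K27ac peaks (29909). Of the H3K4me3 peaks with H3K27ac, 82.9% overlapped both marks at P17, 7.77% H3K4me3 alone and 6.54% neither. Of the 167 H3K4me3-only peaks, 71 overlapped both marks at P17 (42.5%), 50 H3K4me3 alone (29.9%), 1 H3K27ac alone and 45 neither (26.9%). Of the H3K27ac-only peaks, 33717 (12.2%) overlapped P17 H3K27ac and 0.737% P17 H3K4me3. With the widest H3K27ac peaks alone, the share with P17 H3K4me3 was 86.1% in H3K4me3 peaks with H3K27ac and 91.8% in those without, the reverse of the order above. Within P17 itself, 90.2% of H3K4me3 peaks overlapped H3K27ac and 939 did not.

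**Figure D2:**
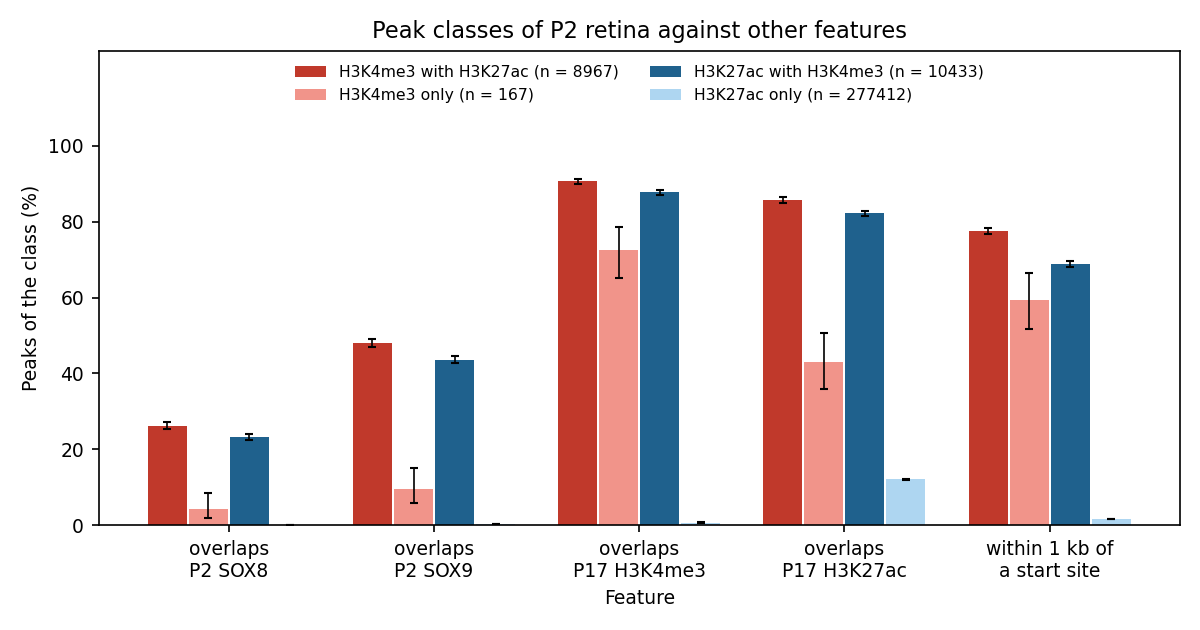
Bars give the percent of peaks of each class (y axis) that overlap the P2 SOX8, P2 SOX9, P17 H3K4me3 and P17 H3K27ac peaks or lie within 1 kb of a start site (x axis), and whiskers the 95% Wilson interval from the number of peaks. H3K4me3-only peaks are below H3K4me3 peaks with H3K27ac in all 5 comparisons, with the widest whiskers since they number 167.

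Promoters with H3K4me3 were rich in CpG whether or not H3K27ac was there, and those with H3K27ac alone were not. Start sites were sorted by the peaks within 1 kb: 9253 had both marks, 181 H3K4me3 only, 5016 H3K27ac only and 6813 neither. The median CpG observed over expected, the number of CpG relative to that from the C and G content, was 0.820 with both marks and 0.748 with H3K4me3 only. It was 0.363 with H3K27ac only and 0.207 with neither. A 300-base promoter held a median of 24, 21, 7 and 3 CpG in that order. The 11 printed promoters are single cases and do not all follow it. Pax6 and Six3, with both marks, held 18 and 14 CpG, Nrp2, with H3K4me3 only, 37, and Dync2h1, with H3K27ac only, 12. The GC content went the same way, with medians of 63.0%, 60.3%, 55.0% and 47.0%. Values over 0.6 were held by 83.3% of promoters with both marks, 71.8% with H3K4me3 only, 26.3% with H3K27ac only and 14.3% with neither.

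**Figure D3:**
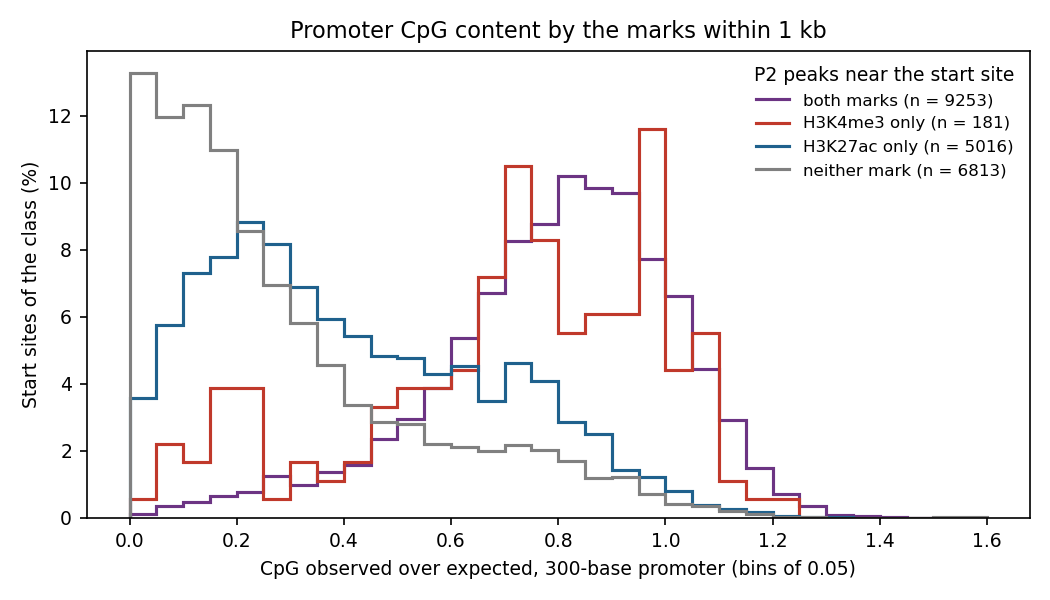
For each class of start site by the P2 peaks within 1 kb, the line gives the percent of its promoters (y axis) at each CpG observed over expected (x axis, bins of 0.05). The 2 classes with H3K4me3 have most promoters above 0.6 and the 2 without have most below it.

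Short motifs also differed in frequency between the classes, which differ in base composition. On either strand, GGGCGG, the GC box bound by SP and KLF factors, was in 69.7% of promoters with both marks and 64.1% with H3K4me3 only. It was in 38.7% with H3K27ac only, 19.3% with neither and 46.2% of all 21263. CCGGAAG, the core site of ETS factors, was in 20.7%, 11%, 6.64% and 2.83% of these classes in the same order, and in 11.6% of all. TATAAA, the TATA box, went the other way, with 5.48%, 8.29%, 11.6% and 23.1%, and 12.6% of all. CCAAT, the box bound by NF-Y, varied little (38.5%, 32.6%, 36% and 39.5%, and 38.2% of all). These motifs do not contain one another. Among the printed promoters, Nr4a2 and H2-D1 held 1 TATAAA each. Nrp2 and Nr4a2 held 4 GGGCGG each, and Pou3f3 and Six3 held 3 CCAAT each. A match is a description of the letters and not a site.

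Per gene, each mark was measured as the bases under its peaks in the gene and 5 kb on each side. Of 21887 protein-coding genes, 10788 had H3K4me3 in this window (49.3%) and 17898 had H3K27ac (81.8%). Both marks were present at 10766 (49.2%), H3K27ac alone at 7132 (32.6%), neither at 3967 (18.1%) and H3K4me3 alone at 22. A window can take in a neighbour's peak. The class went with the P17 marks: 15% of the 7132 genes with H3K27ac alone had H3K4me3 at P17, and 0.681% of the genes with neither. SOX9 peaks were in the window of 53.4% of genes with both marks and 4.50% of genes with H3K27ac alone.

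Among the 10766 genes with both, the median ratio of H3K4me3 to H3K27ac bases was 0.354, so H3K27ac covered 2.83 times as much, and 1888 genes (17.5%) had more H3K4me3. Genes at least 4-fold from this median were called high in one mark: 873 were high in H3K4me3 (8.11% of the 10766) and 1633 in H3K27ac (15.2%). No gap marked these limits. On the log2 scale the nearest genes beyond and short of the H3K4me3 limit were at 2.0004 and 1.9999 from the median, and at -2.001 and -1.998 for H3K27ac.

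The ratio went with gene length: H3K4me3 bases were alike in short and long genes, while H3K27ac bases were more in long ones. Median H3K4me3 was 4301 bases in the H3K4me3-high genes, 3786 in the middle and 3556 in the H3K27ac-high genes. Median H3K27ac was 2355, 9891 and 73380 bases, in windows of a median 18, 30.6 and 139.1 kb. Across genes, which are not independent replicates, the Spearman correlation with window length was 0.74 for H3K27ac and 0.03 for H3K4me3. Of the 1633 H3K27ac-high genes, 1427 were among the 4378 longest genes. Within 2.5 kb of start sites, a window chosen after seeing these values, 7902 genes had both marks and 76.8% had more H3K4me3. There the median ratio was 1.33, and 26 genes were high in H3K4me3 and 76 in H3K27ac. In the interior of genes of at least 20 kb, away from the ends, H3K27ac covered a median of 34.0% where the window held H3K4me3 (5969 genes) and 12.1% where it did not (4070).

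**Figure D4:**
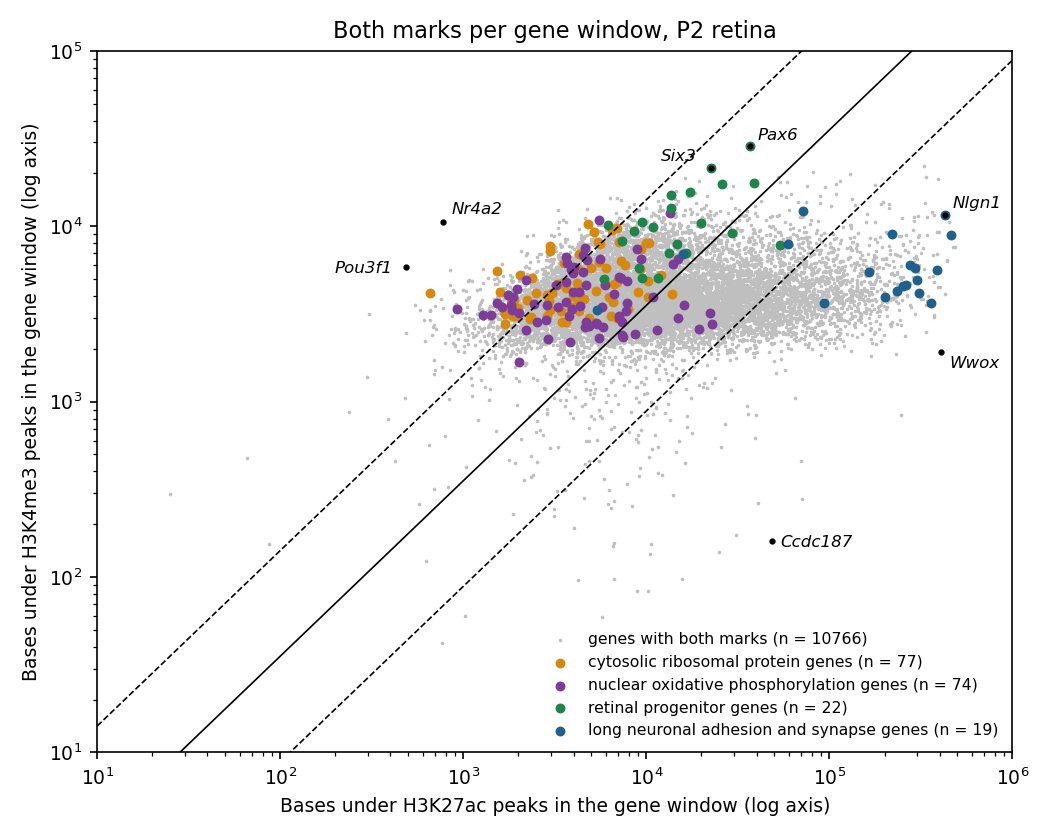
Each point is a gene with both marks at P2, with bases under H3K27ac peaks (x axis) against bases under H3K4me3 peaks (y axis), both on log axes, and 4 gene lists in colour. The solid line is the median ratio of 0.354 and the dashed lines lie 4-fold from it; the cloud spreads far more along H3K27ac than along H3K4me3, with the synapse genes at its right end.

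Relative to H3K4me3, the X chromosome had less H3K27ac than the autosomes. It held 4.41% of the protein-coding genes, 253 H3K4me3 peaks (2.77%) and 4092 H3K27ac peaks (1.42%), so both marks were below the gene share. There were 16.2 H3K27ac peaks per H3K4me3 peak on the X against 32.0 on autosomes. Of 275 X genes with both marks, 83 were high in H3K4me3 (30.2%) and 9 in H3K27ac (3.27%), against 7.53% and 15.5% of the autosomal genes. The window length was alike, with medians of 35.1 and 33.8 kb. H3K27ac covered a median of 10.6% of the X windows and 34.9% of the autosomal ones, while H3K4me3 bases were 3214 and 3796. Within 2.5 kb of start sites the median ratio was 1.503 on the X and 1.323 on autosomes, where 211 and 7691 genes had both marks. The sex of the animals is not given in the sources used here, so the number of X copies behind these values is unknown.

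A pair of transcription factor genes led the ranking by H3K4me3 relative to H3K27ac. Nr4a2 (chr2:57106830-57124003), an orphan nuclear receptor of dopamine neurons and an immediate early gene, had 10524 bases of H3K4me3 and 774 of H3K27ac, a ratio of 13.6. It held 2 H3K4me3 peaks: 1 of 3421 bp at the promoter printed above with all 774 bases of H3K27ac, and 1 of 7103 bp in the gene with none. Pou3f1, a POU-domain neural factor, had 5853 and 485 bases, and its H3K4me3 peak had no overlap with H3K27ac. H2-D1, a class I histocompatibility gene, had 3146 and 305. Sall1, a zinc-finger repressor, had 5640 and 851, again with none under its H3K4me3 peak. The X-linked repressor gene Nkrf (3534 and 545) was also among the 10, as were Nanos2, Syf2 and Hcn3 with ratios between 5.08 and 5.80. The H3K4me3 peak counted for Nanos2 lay beyond the gene, with none within 2.5 kb of its start site. Syf2 and Hcn3 each had a peak at the gene and part of another beyond it. Acsm4, also among the 10, had 479 bases of H3K4me3 and 66 of H3K27ac: the window cut the edge of a peak beyond the gene's end.

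Of the 22 genes with H3K4me3 and no H3K27ac in the window, Myc, the growth-promoting transcription factor (chr15:61985341-61990361), had the most H3K4me3, 6893 bases in a single peak over the gene. It had H3K4me3 without H3K27ac again at P17 (4345 bases). Pou3f3 had 6019 bases, the Wnt receptor gene Fzd10 5139, Tfap2c 4664 and the forkhead gene Foxd2 3782, and none of these 4 had either mark at P17. Bub1, a mitotic checkpoint kinase gene, had 3109 and the nucleolar gene Abt1 6399. Cited1, Spata5l1, Grwd1, Mettl2, Epop and H2-Q4 had between 2654 and 3466. Fcgr3 had 2595. Shox2, Slc25a2, Egr2 (625 bases), Nrip3, Tmem59l and Olfr1366 had only part of a peak that ran out of the window, and 2 unnamed gene models complete the 22. Whole-peak examples are also seen in the list of H3K4me3-only peaks. Its widest was a 7666-bp peak outside protein-coding genes at chr1:171032181-171039846. Next were the Isl2 promoter (7189 bp), the Nrp2 promoter (7187 bp), the Nr4a2 gene body (7103 bp) and Myc (6893 bp). Isl2 is a LIM-homeodomain factor of ganglion cells, and Nrp2 is a receptor for semaphorins and VEGF. The Isl2 peak overlapped neither mark at P17, while the Nrp2 peak overlapped both.

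The low end of the ratio held long genes and windows that cut a neighbour's peak. Ccdc187 (161 bases of H3K4me3, 48504 of H3K27ac), Dlgap2 (837 and 247256), Dync2h1 (280 and 70959), Lima1, Golph3l, Mslnl, Accsl and Myo5b all had under 1000 bases of H3K4me3. In these the window took in only the edge of an H3K4me3 peak. Wwox, a large oxidoreductase gene at a fragile site (chr8:114439635-115352712), was the exception, with its own H3K4me3 peak of 1926 bp and 404939 bases of H3K27ac over 43.9% of the window. Among genes with at least 1000 bases of H3K4me3, a minimum chosen after seeing the values, Wwox was followed by Shank2, Cep128, Snx29, Etl4, Adam12, Pard3, Dab1, Cacna2d3 and Mad1l1. Shank2, a postsynaptic scaffold gene, had 2508 and 335563 bases. Pard3, a polarity gene, had 4114 and 430613, and Mad1l1, a spindle checkpoint gene, had 3159 and 295048, the latter over 91.4% of its window.

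By H3K27ac alone the ranking was one of long genes. Arhgap26, a GTPase-activating protein gene, had the most, 483588 bases (61.6% of the window), followed by the teneurin gene Tenm2 (475369), Lsamp (458661), Ctnnd2 (450534), Ptprg (440479) and Tenm4 (437599). Fhit had 435871 bases and no H3K4me3, and Nlgn1, the neuroligin gene, had 426127. The widest H3K27ac-only peaks lay in Ssbp3 and Mrpl37 (141724 bp), Rptor (122994 bp), Msi2 (122975 bp), Tpcn2 and Smim38 (88429 bp) and Med27 (79744 bp). All 5 overlapped H3K27ac at P17 and none H3K4me3. Msi2 is an RNA-binding protein gene of neural progenitors, and its P17 peaks covered 120186 of the bases.

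By H3K4me3 the ranking was led by Pax6, Gse1 and Six3. Pax6, the master regulator of eye development (chr2:105668896-105698410), had 28656 bases of H3K4me3 and 36610 of H3K27ac in a window of 39515. Its main H3K4me3 peak was 33680 bp wide, reached beyond the window and was wholly under H3K27ac. Six3 (chr17:85613608-85626191), another eye-field homeobox gene, had 21553 bases of H3K4me3, and H3K27ac covered its entire window of 22584. Gse1, a coregulator gene, had 22072, Ccdc85c 20259, the TALE homeobox gene Meis1 19945 and the retinoic acid receptor gene Rara 19087. Camta1 had 18993, the H3K27 demethylase gene Kdm6b 18809, Frmd4a 18486 and Nol4l 18189. The ratio of Pax6, Six3, Ccdc85c, Meis1, Rara, Kdm6b and Nol4l was within 4-fold of the median, while Gse1, Camta1 and Frmd4a were H3K27ac-high in windows of 362883, 812246 and 606394 bases.

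All 22 retinal progenitor genes of the list used here had both marks, and H3K27ac covered a median of 79.4% of their windows against 20.9% over all genes. In 18 of the 22 H3K27ac covered more than 50% of the window, which was so for 18.8% of all genes. The median H3K4me3 was 9602 bases. Sox2, a pluripotency and progenitor factor, had 10581 bases of H3K4me3 and 9474 of H3K27ac in a window of 12467. The eye-field gene Rax had 12693 and 13559, Six6 15011 and 13713, and Lhx2 17413 and 25809. Notch1, the receptor that holds progenitors undifferentiated, had 7778 and 53748, and its target Hes1 had 9366 and 8609. Olig2 had the highest ratio of the list, 10133 to 6143. The profiled factors' own genes had both marks too, with 7924 and 14794 at Sox8 and 5787 and 9077 at Sox9. In 12 of the 22, Sox2, Sox8, Sox9 and Notch1 among them, no H3K4me3 peak was in the window at P17, as in 745 of the 10788 genes with H3K4me3 at P2 (6.91%). This was not particular to progenitor genes. Of the genes with H3K4me3 at P2, 4 of 7 ganglion cell, 6 of 15 Müller glia and 3 of 12 amacrine and horizontal genes also had none at P17. No rod, cone or bipolar gene was among such cases. The list's median log2 ratio relative to all genes was 1.04 over gene windows and -0.35 within 2.5 kb of start sites.

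Rod photoreceptor genes were split by H3K4me3. Of 26, 14 had H3K4me3 at P2 (53.8%, against 49.3% of all genes) and 24 had H3K27ac (92.3%, against 81.8%). All 26 had both at P17. The transcription factors Crx (11638 bases of H3K4me3, 15853 of H3K27ac), Nrl (7642 and 11973) and Nr2e3 (8818 and 18401), which drive the rod program, had both. Phosducin (Pdc, 6525 and 5747), Tulp1 (7808 and 10672) and Rom1 (5896 and 6108) did as well. Sag, the arrestin gene, had 22661 bases of H3K27ac over 39.7% of its window and no H3K4me3, then 15064 bases of H3K4me3 at P17. Abca4, Cngb1 and Pde6a, of the retinoid and phototransduction pathways, also had H3K27ac alone (34375, 20267 and 15702 bases). Transducin alpha, Gnat1, had 481 bases of H3K4me3, the edge of a peak, and 10316 of H3K27ac. In all, 10 rod genes had H3K27ac alone at P2 and all 10 had H3K4me3 at P17. Guca1a and Guca1b, the guanylate cyclase activators, had neither mark at P2 and both at P17. Over all genes, 15% of those with H3K27ac alone had H3K4me3 at P17. The list's median log2 ratio was 0.40, and -0.41 at start sites and -0.18 at gene ends.

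Cone photoreceptor genes had H3K27ac in 11 of 12 (91.7%, against 81.8% of all genes) and H3K4me3 in 3 (25%, against 49.3%). These were Gnb3 (8510 bases of H3K4me3, 15690 of H3K27ac) and Gnat2 (3406 and 8383), both transducin subunits, and Thrb (3747 and 230865). Thrb is a thyroid hormone receptor gene. Within 2.5 kb of its listed start site Gnat2 had no H3K4me3 and 193 bases of H3K27ac. Of the 8 cone genes with a listed start site, only Thrb had both marks there, against 7902 of 17492 over all genes. The S-opsin gene Opn1sw had 8939 bases of H3K27ac over 64.6% of its window and the M-opsin gene Opn1mw neither mark. None of the 8 cone genes with H3K27ac alone had H3K4me3 at P17, where 15% of all such genes did, so few would be looked for among 8.

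Of 21 ganglion cell genes, 7 had H3K4me3 (33.3%, against 49.3% of all genes) and 14 had H3K27ac (66.7%, against 81.8%). H3K27ac covered a median of 10.9% of their windows, against 20.9% over all genes. Atoh7, the factor that makes progenitors competent for this fate, had 2863 bases of H3K4me3 and 2845 of H3K27ac. Isl2 had 7189 and 2062, with the 2 apart, and the neurofilament gene Nefm 4873 and 2006. Tubb3, a neuronal tubulin gene, had 6111 and 7540, and Stmn2 4008 and 26270. Pou4f1, Pou4f2, Pou4f3, Isl1, Eomes, Irx2 and Nefl, which include the POU4 factors that define these cells, were without either mark at P2.

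Amacrine and horizontal cell genes had H3K4me3 in 12 of 20 (60%, against 49.3% of all genes) and H3K27ac in 19 (95%, against 81.8%). Tfap2a (14417 and 6311) and Tfap2b (10750 and 10027), AP-2 factors of amacrine cells, and Onecut1 (8376 and 6685), a horizontal cell factor, had more H3K4me3 than H3K27ac. Slc32a1, the vesicular inhibitory transmitter transporter, did as well (9639 and 7731). Foxn4, which starts the amacrine and horizontal fate, had 5910 bases of H3K4me3 and H3K27ac over its whole window of 30255. Chat, Th, Calb1 and Calb2, markers of mature subtypes, had H3K27ac alone, between 818 and 3421 bases. So did the transcription factor genes Ptf1a (1519), Lhx1 (1407) and Neurod6 (5492), so this class was not limited to mature markers.

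Bipolar cell genes had H3K4me3 in 8 of 18 (44.4%, against 49.3% of all genes) and H3K27ac in 16 (88.9%, against 81.8%), both near the shares over all genes. The homeobox gene Otx2, shared by photoreceptors and bipolar cells, had 15896 and 14577 bases, Neurod4 8716 and 11274, Bhlhe22 7490 and 4648, and Prdm8 7825 and 5946. Trpm1, the channel of ON bipolar cells, had 49433 bases of H3K27ac alone, and the receptor gene Grm6 had 14. Both were among the 4 of 8 bipolar genes with H3K27ac alone that had H3K4me3 at P17, where 15% of all such genes did. Vsx1 and Cabp5 had neither mark at P2.

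Müller glia genes had H3K27ac in all 18 (against 81.8% of all genes) and H3K4me3 in 15 (83.3%, against 49.3%). Of the 12 with a listed start site, 6 had both marks within 2.5 kb of it, against 7902 of 17492 over all genes. At Rlbp1, H3K27ac covered all 5001 bases around the start site and H3K4me3 none. The glutamine synthetase gene Glul had 6260 bases of H3K4me3 and 15117 of H3K27ac, the retinoid carrier gene Rlbp1 3264 and 21712, and the glutamate transporter gene Slc1a3 4295 and 77542 over 89.5% of its window. Apoe had 3569 and 14838, Dkk3 7740 and 52863, and the gliogenic factor genes Nfia 17104 and 178346 and Nfib 7336 and 48042. Aqp4, the water channel gene, Clu and Abca8a had H3K27ac alone, between 9321 and 9790 bases. None of the 3 had H3K4me3 at P17, where 15% of all such genes did. Gfap had 98 bases of H3K4me3, the edge of a peak, and 6655 of H3K27ac. H3K27ac covered a median of 47.4% of the windows. The list's median log2 ratio was -1.21, with -0.17 without flanks, -0.61 with 20 kb flanks and -0.54 at start sites.

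Cell division genes had each mark in 24 of 25 (96%), against 49.3% of all genes for H3K4me3 and 81.8% for H3K27ac. Mcm7 (7652 and 3396) and Ccna2 (4572 and 2419) had the highest ratios, and Mcm6 (3759 and 22400) and Tyms (2796 and 14047) were among the lowest. Ccnb2 had H3K27ac alone (11750) and Bub1 H3K4me3 alone. In 15 of the 24, Mki67, Top2a and Cdk1 among them, no H3K4me3 was in the window at P17, against 6.91% of all genes with H3K4me3 at P2. Replication-dependent histone genes, whose clustered windows overlap, had H3K4me3 in 52 of 63 (82.5%) and H3K27ac in 58 (92.1%).

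Housekeeping genes, which lie in short windows, were on the H3K4me3 side of the median ratio. All 77 cytosolic ribosomal protein genes had both marks, with medians of 4200 bases of H3K4me3 and 4248 of H3K27ac in windows of a median 13.2 kb. Of these, 25 were H3K4me3-high, where 8.11% of all genes with both marks were, and none was H3K27ac-high. Rpl28 (5581 and 1519) and Rps27a (4216 and 1585) were among the highest, and Rps10 (4119 and 13879) was lowest. All 74 nuclear oxidative phosphorylation genes had both marks (medians 3555.5 and 4623.5 bases, windows 17.4 kb) and 21 were H3K4me3-high. Cox6b1 (3366 and 928) was highest and Ndufs4 (2765 and 22825) lowest. The median log2 ratio was 1.67 and 1.27 for the 2 lists, and 0.26 and 0.14 at start sites. The 1026 genes with both marks among the 4379 shortest had 1.46 by gene windows. Of these 1026, 239 were H3K4me3-high and 9 H3K27ac-high. The 2095 with both marks among the 4376 genes next in length (median window 17.4 kb) had 1.03, and 323 were H3K4me3-high.

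Long neuronal adhesion and synapse genes were at the other end. All 26 had H3K27ac (against 81.8% of all genes) and 19 had H3K4me3 (73.1%, against 49.3%), in windows of a median 1126 kb. Of the 19, 15 were H3K27ac-high, where 15.2% of all genes with both marks were. Among the 4378 longest genes (median window 118.5 kb), 2715 had both marks and 1427 of these were H3K27ac-high. Dab1 (3631 and 358293), Gpc6 (4149 and 309338) and Ctnna2 (5613 and 389143) had the lowest ratios. The short members Nlgn3 (3339 and 5351) and Nlgn2 (6982 and 15771), in windows of 32172 and 24662 bases, were on the H3K4me3 side of the median. H3K27ac covered a median of 16.9% of the windows, under the 20.9% over all genes. Cntnap2, Csmd1, Csmd3, Kcnip4, Lrp1b, Opcml and Rbfox1 had H3K27ac alone. The median log2 ratio was -4.16 over gene windows, 0.47 in windows at the gene ends and -0.28 at start sites.

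Immediate early genes, which neurons switch on within minutes of a stimulus, had H3K4me3 in 12 of 16 and H3K27ac in 15. These are 75% and 93.8%, against 49.3% and 81.8% of all genes. Fos had 4517 bases of H3K4me3 and 4647 of H3K27ac, Egr1 5321 and 4219, Fosb 4902 and 2521, and Junb 8746 and 7009. Nr4a1 had 15581 of H3K27ac alone and Atf3 2030, and both had H3K4me3 at P17. Of the 4 such genes in the list 3 did, against 15% over all genes. The list's median log2 ratio was 1.550 over gene windows and -0.38 at start sites. The 26 genes for enzymes that write, read or remove these marks all had both. Kdm6b was highest in H3K4me3, and Cxxc1, a CpG-binding subunit of the SET1 complex, had the highest ratio (3659 and 2481). The acetyltransferase gene Kat2b had the lowest (4926 and 85578), while Crebbp and Ep300, which encode CBP and p300, had 7320 and 24982, and 5832 and 14457.

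Few genes of other cell types and tissues had H3K4me3 (49.3% of all genes did), and the lists differed in H3K27ac (81.8% of all genes). Of 20 microglia and endothelial genes, 19 had H3K27ac and 2 had H3K4me3, Kdr (8910 and 47488) and Aif1 (1178 and 1394). Csf1r had 24356 bases of H3K27ac and P2ry12 37009, over 68.5% and 65.2% of the window. Pigment epithelium and lens genes had H3K27ac in 19 of 21 and H3K4me3 in 4, and liver and skeletal muscle genes in 16 and 4 of 22. Albumin (Alb) and Rpe65 had neither mark. Regulators of other lineages had H3K27ac in 13 of 34 and H3K4me3 in 1, the limb and heart gene Tbx5 (8431 and 18247). Hox cluster genes had H3K27ac in 2 of 39 and H3K4me3 in none, and olfactory receptor genes had them in 153 and 4 of 1106. The part of other cells of the dissected tissue in the H3K27ac of these genes was not tested.

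**Figure D5:**
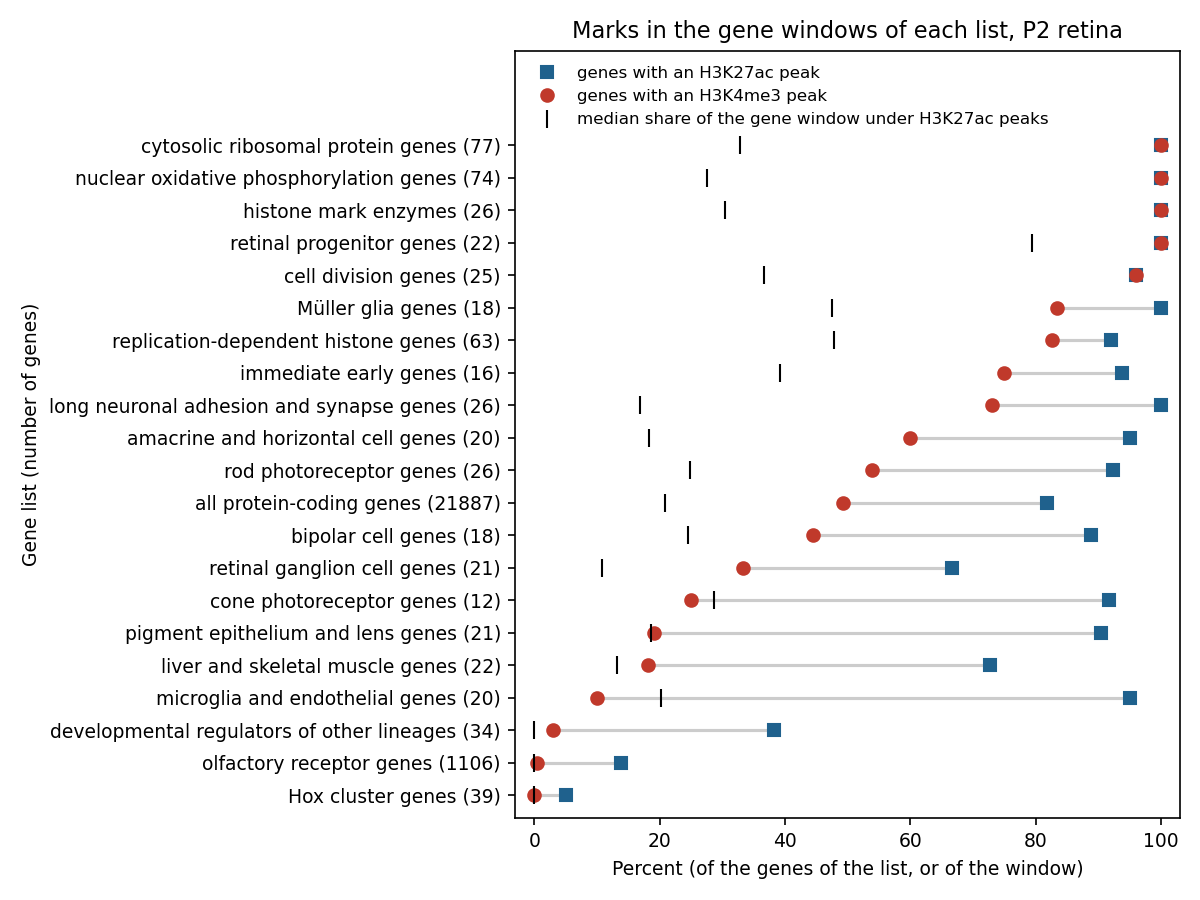
For each gene list (y axis, number of genes in brackets) the percent of genes with an H3K4me3 peak (circle) and an H3K27ac peak (square) in the window and the median percent of the window under H3K27ac peaks (tick) are drawn on 1 percent scale (x axis). The 2 symbols coincide near 100% for progenitor, housekeeping and mark enzyme genes and lie far apart for cone, microglia and endothelial, and pigment epithelium and lens genes.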

How the data were processed

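The deposited files are 8 lists of peaks, 1 per target and age, whose values are chromosome positions in base pairs. Per the submitters' processing notes, Bowtie2, SEACR and the build GRCm38 were used, with no roles or versions. The threshold, the use of IgG and how libraries were combined are not given in the sources used here. The score column was 0 throughout, so the lists hold no height. Sequencing depth is unknown, and every count here would shift if the lists were called at unequal depth or stringency. No IgG list was used here.

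From the positions, overlaps (1 base), covered bases and Wilson intervals were computed with Python 3.11.15, pandas 2.3.3, numpy 2.4.6 and scipy 1.17.1. The overlap code gave no difference from a slow count on simulated intervals. Genes came from RefSeq (GRCm38.p6), and windows were the gene with 5 kb on each side. Named were the 10 genes with the highest and lowest ratio and the most bases of each mark, the 5 widest peaks of each single-mark class, and members of each list. Predicted genes were not named, and some genes that the rule names are not reported here. The 22 genes with H3K4me3 alone, other single genes and the Pax6 and Six3 promoters were chosen after their values were seen. The comparison, members and gene lists were chosen with earlier results of these data known. The histone list was widened to current symbols. No replicate could be compared, so no test was made.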

Additional observations from a re-analysis of the deposited data

How the results depend on the processing

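No paired analysis was possible because the lists name no replicate, and for the same reason no replicate could be left out. The cause of the following shifts was not tested. Requiring 50% of the shorter peak to be shared gave 3.41% of H3K27ac peaks on H3K4me3. The wider peaks of each list alone gave 95.9% of H3K4me3 and 3.42% of H3K27ac peaks shared, and peaks trimmed to 500 bp 60.7% and 1.93%. The widest H3K27ac peaks in the P17 number gave 26.7% and 8.24%, with 6281 genes with both marks, 453 H3K4me3-high and 955 H3K27ac-high. Without flanks 1578 genes were H3K4me3-high. Windows of 5 kb around gene ends gave a median ratio of 0.614, with 205 and 145 high genes, and start sites (2.5 kb, chosen after seeing the data) 1.33, with 26 and 76. A 2-fold limit gave 3022 and 3248.

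Median log2 ratios of lists that changed sign were, without flanks, cone -0.48 and pigment epithelium and lens 0.60. With 20 kb flanks they were cone -0.30, bipolar -0.70, pigment epithelium and lens 0.040, and liver and muscle -0.11. At gene ends they were rod -0.18, cone -0.18, cell division -0.32, long neuronal 0.47, and liver and muscle -0.12. With the widest H3K27ac peaks they were amacrine and horizontal -0.63, and pigment epithelium and lens 0.81. At start sites they were progenitor -0.35, rod -0.41, ganglion -0.094, cell division -0.12, mark enzymes -0.14, immediate early -0.38 and histone -0.21. Autosomes alone, and leaving out H3K27ac peaks under 500 bp, changed no sign.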
